A study of Macaca mulatta with 6 samples.

Results

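TYROBP, AIF1, C1QA and TMEM119 are 4 genes by which microglia, the resident macrophages of the brain, are commonly recognised, and they are described here in tissue that was captured for its serotonin neurons. The members were every probe set to which the array's annotation gives a single gene symbol, that of one of these genes. There were 6 such probe sets, out of 24956 with a single symbol, for 4 of 14132 named genes. TYROBP had the probe set MmugDNA.7359.1.S1_s_at, and TMEM119 had MmugDNA.39484.1.S1_at. AIF1 had MmuSTS.2776.1.S1_at and MmugDNA.10834.1.S1_at, and C1QA had MmuSTS.1957.1.S1_at and MmugDNA.2736.1.S1_at, called probe set 1 and probe set 2 of each gene in that order, by the higher mean. The ending _s_at marks a set whose probes can match more than one transcript. Positions in the genome are not given, because the annotation names no build.

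Microglia enter the brain during development, renew themselves there, survey synapses and clear debris, and they lie among neurons throughout the raphe. TYROBP, also called DAP12, is an adaptor in the microglial membrane that passes on signals from receptors such as TREM2 through a tyrosine motif in its tail. C1QA encodes a chain of C1q, the protein that starts the classical complement pathway and that microglia supply in the brain. AIF1, also called IBA1, binds calcium and bundles actin and is the usual antibody target for staining microglia, while TMEM119 is a membrane protein used in mouse and human to set microglia apart from macrophages that come from blood. These roles are known mainly from mouse and human.

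The study measured RNA from laser-captured cells of the dorsal raphe nucleus of 6 female rhesus macaques on 6 single-color arrays, with 1 array for each monkey. In 2 monkeys the implanted capsules held estrogen and progesterone, in 2 estrogen, and 2 were given placebo, each for 1 month. Ovx, taken to mean ovariectomized, appears in the titles of the placebo monkeys alone, and neither dose nor age is stated. With 2 animals in each group an exact permutation test cannot go below p = 0.333. What limits the groups as a comparison is that the labels do not say whether the hormone-treated monkeys had ovaries.

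Each array carries 59 control probe sets against bacterial or tag sequences, and their 95th percentile was used as its floor. A signal below the floor is not told apart from background. The floor lay at 74.9 and 283 on the arrays estrogen+progesterone 1 and 2, at 29.99 and 51.6 on estrogen 1 and 2, and at 216 and 221 on placebo 1 and 2. The share of transcript probe sets above it was 49.6% and 28.7% with both hormones, 62.2% and 58.5% with estrogen, and 37.3% and 36.3% with placebo. Estrogen+progesterone 2, placebo 1 and placebo 2 are called low-signal arrays and the other 3 high-signal arrays. Estrogen+progesterone 2 stood apart from the rest: across the 26383 tested probe sets it correlated with its partner array at r = 0.000477, a value across probe sets, which are not independent. Without it, 1 monkey stands for the combined treatment, and differences from that setting are given beside those of both monkeys.

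Signal for the microglial genes stood above background on most arrays. Of the 36 values of the 6 probe sets, 26 lay above the floor of their array. The count was 5 and 2 of 6 with both hormones, 5 and 5 with estrogen, and 5 and 4 with placebo, so estrogen+progesterone 2 had the smallest number. One probe set, C1QA probe set 1, was above the floor on all 6 arrays.

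**Figure D1:**
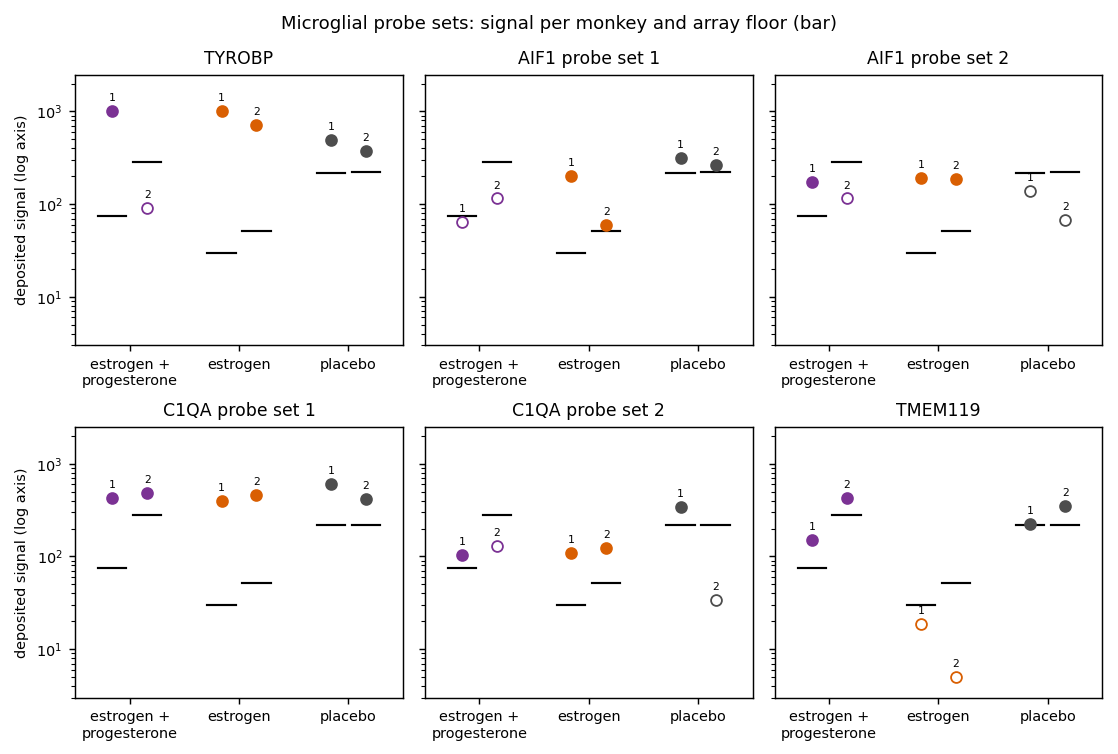
Deposited signal (log axis, no unit) of the 6 probe sets in each of the 6 monkeys, grouped by treatment. Each point is 1 array, numbered by replicate, the short bar beside it is that array's floor, and open points lie below it. TYROBP is above the floor on 5 arrays, C1QA probe set 1 on all 6, and TMEM119 is below it on both estrogen arrays alone.

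TYROBP had signals of 1015 and 90.0 with both hormones, 1015 and 714 with estrogen, and 487 and 379 with placebo. Against the floors this was 13.5 and 0.318 times with both hormones, 33.8 and 13.8 times with estrogen, and 2.26 and 1.72 times with placebo. The 3 high-signal arrays were alike, the placebo arrays lower in signal, and estrogen+progesterone 2 was below its floor. After quantile normalization, which gives all arrays one distribution, the log2 levels were 9.62 and 6.21 with both hormones, 9.52 and 9.23 with estrogen, and 9.27 and 8.72 with placebo. The estrogen and placebo ranges overlapped slightly, and the pair given both hormones spanned them. Being above the floor everywhere but on estrogen+progesterone 2 was a common pattern, found in 16.7% of the tested probe sets.

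C1QA was measured on all arrays by its first probe set and on 4 by its second. Probe set 1 had signals of 431 and 480 with both hormones, 396 and 460 with estrogen, and 604 and 418 with placebo. These 6 signals lay within 1.53-fold of one another, although the floors under them differed widely. Normalized log2 levels averaged 9.05 ± 0.38 with both hormones, 8.70 ± 0.10 with estrogen and 9.31 ± 0.52 with placebo (SD, n = 2 monkeys each), an order in which neither step exceeded the SD of the wider of its 2 groups.

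C1QA probe set 2 had signals of 104 and 129 with both hormones, 108 and 125 with estrogen, and 340 and 33.98 with placebo. The highest signal was on placebo 1, while placebo 2, at 0.154 times its floor, and estrogen+progesterone 2, at 0.455 times, were below theirs and give no measured level. Its normalized values averaged 6.94 ± 0.51 with both hormones, 7.54 ± 0.038 with estrogen and 6.85 ± 2.26 with placebo (SD, n = 2 each), with background in 2 of the 3 means.

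AIF1 was also split between its probe sets. Probe set 1 had signals of 64.2 and 115 with both hormones, 200.1 and 59.2 with estrogen, and 316 and 264 with placebo. Both arrays of the combined treatment were below their floors, and the other 4 were above, by as little as 1.15 times on estrogen 2. This pattern occurred in 0.887% of the tested probe sets. Normalized log2 levels were 6.59 ± 0.19 with both hormones, 7.39 ± 0.94 with estrogen and 8.05 ± 0.31 with placebo (SD, n = 2 each).

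AIF1 probe set 2 ran the other way relative to placebo. Its signals were 174 and 115 with both hormones, 190 and 188 with estrogen, and 138 and 67.1 with placebo. Both placebo arrays and estrogen+progesterone 2 were below the floor, which are the 3 low-signal arrays, and 10.9% of the tested probe sets shared that pattern. Its normalized levels were 7.17 ± 0.999 with both hormones, 7.96 ± 0.084 with estrogen and 6.30 ± 0.54 with placebo (SD, n = 2 each).

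TMEM119 had signals of 150 and 427 with both hormones, 18.6 and 5.003 with estrogen, and 227 and 354 with placebo. Both estrogen monkeys were low and below their floors, at 0.620 and 0.0969 times, and did not overlap with any of the other 4, which were above theirs at 2.01 and 1.51 times with both hormones and 1.05 and 1.60 times with placebo. This pattern, below the floor with estrogen and above it on the 4 other arrays, was seen in 79 of the 26383 tested probe sets, or 0.299%. Normalized log2 levels were 7.72 and 8.96 with both hormones, 5.86 and 4.72 with estrogen, and 7.49 and 8.55 with placebo, so the first and the last group overlapped. The margins over the floor were narrow: with the highest control probe set as floor, TMEM119 was above it on 2 arrays, not 4.

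The first question was the response to estrogen given alone. TMEM119 stood lower with estrogen, at -2.73 ± 0.91 on the log2 scale (difference ± SE, 2 monkeys in each group), and AIF1 probe set 2 stood higher, at 1.66 ± 0.87. TYROBP differed by 0.38 ± 1.11, C1QA probe sets 1 and 2 by -0.61 ± 0.82 and 0.69 ± 1.09, and AIF1 probe set 1 by -0.66 ± 0.86. None of the 6 passed the test, with adjusted p = 0.635 for TMEM119 and up to 0.935 for TYROBP from limma over all 26383 probe sets, of which 0% were called. At an unadjusted p under 0.05 stood 1 of the 6, TMEM119, against 7.83% of all probe sets tested. Groups did not overlap for 3 of the 6, AIF1 probe set 2 higher and TMEM119 and C1QA probe set 1 lower, against 53.9% of all. The median over the 6 was -0.11, against 0.17 over all tested.

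Where a whole group is below the floor, the data give only a bound. TMEM119 was lower with estrogen by at least 2.94-fold, from the placebo mean and the estrogen floors on the normalized scale. AIF1 probe set 2 was higher with estrogen by at least 1.45-fold by the same reckoning with the placebo floors. On the deposited scale its estrogen signals of 190 and 188 lay below the placebo floors of 216 and 221. That bound thus holds on the normalized scale only. Such bounds describe the measured arrays and make no allowance for spread between monkeys. Both estrogen arrays were high-signal and both placebo arrays low-signal, and an effect of estrogen and one of signal strength cannot be told apart here. With high or low array signal as a covariate, whose effect can then come from the 2 estrogen+progesterone arrays only, the TMEM119 difference was -1.49 and that of TYROBP turned to -3.03.

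Markers of other cells differed between the groups too. The sum over 6 leukocyte marker genes was 349 to 1403 with both hormones, 179 to 243 with estrogen and 763 to 1173 with placebo, and that over 3 erythrocyte markers was 192 to 602 with both hormones, 77.6 to 154 with estrogen and 656 to 869 with placebo. Leukocyte markers above the floor numbered 2 and 3 of 6 with both hormones, 2 and 1 with estrogen and 2 and 1 with placebo, and erythrocyte markers 1 and 1 of 3 with both hormones, 1 and 2 with estrogen and 2 and 2 with placebo. None was at 0. Most leukocyte markers were thus below the floor on 5 of the 6 arrays, and their sums were low where the floor was low, so these sums include many signals not told apart from background. Astrocyte markers summed to 58884 and 2965 with both hormones, 52069 and 62627 with estrogen, and 17084 and 16054 with placebo, and 6 of 6 were above 0 for estrogen minus placebo (median 1.47). For both hormones minus estrogen, 0 of 6 astrocyte markers were above 0 (median -1.37; -0.15 without estrogen+progesterone 2), and 0 of 5 neuronal markers (-1.81; -0.20 without it). Of all 9781 genes, 60.6% were above 0 for estrogen minus placebo (median 0.28). For both hormones minus estrogen 34.0% were, with a median of -0.44, or 0.049 without estrogen+progesterone 2. With all arrays, the astrocyte and neuronal medians given here had the sign of the median of all genes. Without estrogen+progesterone 2, those against estrogen had the opposite sign. With all arrays, the 2 tested leukocyte and 2 tested erythrocyte markers went against all genes. Their medians were -1.71 and -1.80 with estrogen against placebo. Against estrogen, both hormones gave 1.68 and 0.56, or 1.26 and 0.22 without estrogen+progesterone 2, where the median of all genes was 0.049. The part of any of these cell types, or of array signal, in the TMEM119 differences was not tested. In captured tissue, fewer microglia and less RNA in each cannot be told apart either.

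**Figure D2:**
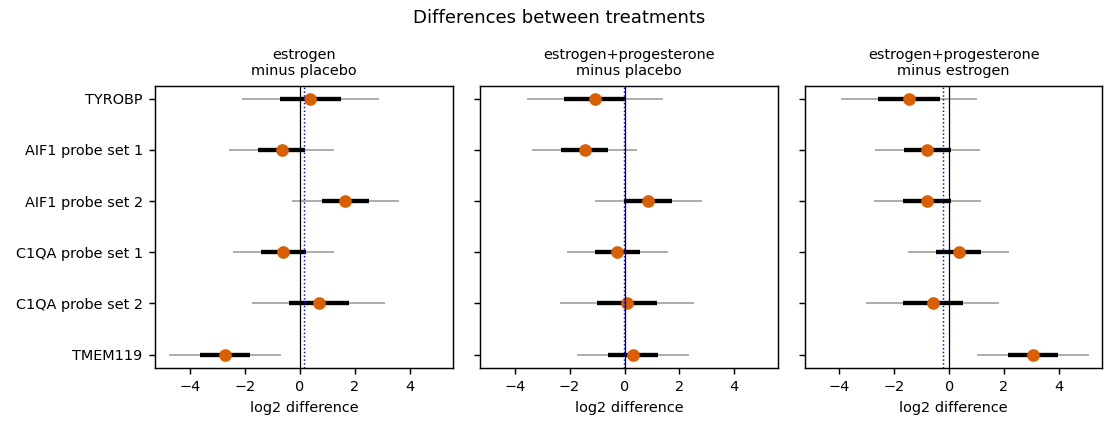
Log2 differences between treatments for the 6 probe sets, 1 panel per comparison. Points are estimates from limma, thick bars 1 SE, thin bars 95% intervals, the solid line 0 and the dotted line the median over all tested probe sets. TMEM119 lies at -2.73 for estrogen minus placebo and at 3.05 for both hormones minus estrogen, and the intervals of the other 5 probe sets include 0 in all 3 panels.

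Estrogen and progesterone together were next set against placebo. AIF1 probe set 1 stood lower, by -1.46 ± 0.86, and its 2 groups did not overlap. With both arrays of the combined treatment below the floor it was lower by at least 1.61-fold, a bound with the limits named above. This bound also holds on the normalized scale only. The deposited signal of placebo 2, 264, lay below the floor of estrogen+progesterone 2, 283. AIF1 probe set 2 stood at 0.87 ± 0.87, TYROBP at -1.08 ± 1.11, C1QA probe sets 1 and 2 at -0.26 ± 0.82 and 0.089 ± 1.09, and TMEM119 at 0.32 ± 0.91. The 95% interval for TMEM119 was -1.72 to 2.36, which spans several-fold differences in either direction.

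None of the 6 passed here, with adjusted p of 0.992 to 0.998 from limma, as for 0% of all probe sets. At an unadjusted p under 0.05 stood 0 of 6, against 3.3% of all, and groups did not overlap for 1 of 6, against 24.7%. The median over the 6 was -0.086, against -0.032 over all tested. TYROBP depended on 1 monkey. Without estrogen+progesterone 2 its difference was 0.63, and without estrogen+progesterone 1, which leaves only low-signal arrays in the comparison, it was -2.78. Without estrogen+progesterone 2, AIF1 probe sets 1 and 2 stood at -1.32 and 1.58, and C1QA probe sets 1 and 2 at -0.53 and 0.45. The TMEM119 difference was -0.30 without estrogen+progesterone 2, 0.94 without estrogen+progesterone 1 and -0.21 without placebo 1.

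What progesterone added to estrogen was read from the remaining pair of groups. TMEM119 stood higher with both hormones than with estrogen, at 3.05 ± 0.91, and by at least 3.67-fold against the estrogen floors. TYROBP stood at -1.46 ± 1.11, AIF1 probe sets 1 and 2 at -0.80 ± 0.86 and -0.79 ± 0.87, and C1QA probe sets 1 and 2 at 0.35 ± 0.82 and -0.60 ± 1.09. Without estrogen+progesterone 2, AIF1 probe sets 1 and 2 stood at -0.67 and -0.086, and C1QA probe sets 1 and 2 at 0.079 and -0.23. Without estrogen 1, AIF1 probe set 1 stood at -0.13. Over all left-out arrays, AIF1 probe sets 1 and 2 ranged from -1.47 to -0.13 and from -1.50 to -0.086. C1QA probe sets 1 and 2 ranged from 0.079 to 0.62 and from -0.96 to -0.23. With 2 arrays in a group, leaving out one or the other moves a difference equally far in opposite directions. This comparison and that of estrogen with placebo share the estrogen arrays, so the 2 large TMEM119 values rest on the same 2 low arrays.

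None of the 6 passed, with adjusted p = 0.799 for TMEM119 and for TYROBP from limma and up to 0.901 for C1QA probe set 1, again as for 0% of all. At an unadjusted p under 0.05 stood 1 of 6, TMEM119, against 1.76% of all. Groups did not overlap for 4 of 6, TMEM119 and C1QA probe set 1 higher and AIF1 probe set 2 and C1QA probe set 2 lower, against 34.2% of all. The median over the 6 was -0.69, against -0.22 over all tested.

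The 2 monkeys given both hormones both stood above the estrogen pair on TMEM119, though 2.84-fold apart in signal, and disagreed on TYROBP. Within the high-signal arrays alone, estrogen+progesterone 1 minus the estrogen pair, TMEM119 stood at 2.43 and TYROBP at 0.24. Without estrogen+progesterone 1, TMEM119 stood at 3.67 (adjusted p = 0.0397, limma) and TYROBP at -3.17 (adjusted p = 0.0363). That setting sets a single array, the one that stands apart, against the estrogen pair. Its spread is taken from the estrogen and placebo groups and assumed to hold for the lone array, and 15.9% of all probe sets pass in it. Across all alternatives the adjusted p ran from 0.0397 to 0.99998 for TMEM119 and from 0.0363 to 0.99998 for TYROBP in this comparison.

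**Figure D3:**
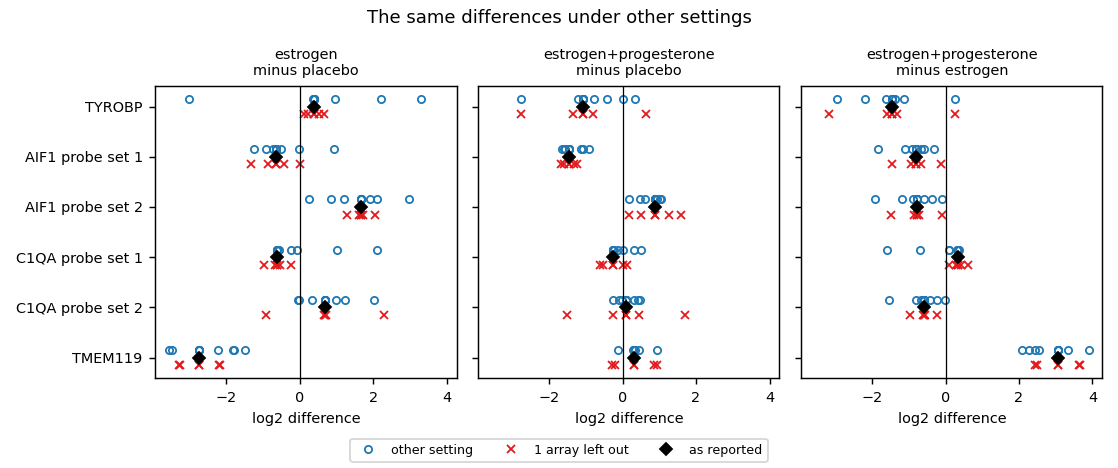
Log2 differences of the 6 probe sets as reported (diamonds), under the other processing settings (circles) and with 1 array left out (crosses), 1 panel per comparison. TMEM119 stays between -3.56 and -1.49 for estrogen minus placebo and between 2.07 and 3.90 for both hormones minus estrogen, while TYROBP lies on both sides of 0 in each panel.

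Receptors that signal through TYROBP were above the floor most often with estrogen, as were transcript probe sets as a whole. The counts also include HCST, a related adaptor and not a receptor, which was below the floor on every array. Of 9 with a named probe set, 2 and 0 were above it with both hormones, 7 and 6 with estrogen, and 3 and 3 with placebo. Over all transcript probe sets the shares were 49.6% and 28.7% with both hormones, 62.2% and 58.5% with estrogen, and 37.3% and 36.3% with placebo. The estrogen arrays are those with the lowest floors. Of the 9, 2 exceeded the floor on every high-signal array and 0 on every low-signal array, and 3 entered the test. TREM2, the lipid-sensing receptor of microglia, had signals of 220.1 and 79.0 with both hormones, 94.3 and 119 with estrogen, and 43.7 and 336 with placebo. It was above the floor on 4 arrays, and its groups overlapped. KLRD1, a receptor subunit of natural killer cells, had 826 and 65.3 with both hormones, 913 and 1163 with estrogen, and 294 and 457 with placebo, low on the same array as TYROBP. NCR2, another receptor first known from natural killer cells, had 25.4 and 152 with both hormones, 75.3 and 117 with estrogen, and 370 and 401 with placebo. For estrogen minus placebo TREM2 stood at 0.51 ± 1.14, KLRD1 at 0.99 ± 1.16 and NCR2 at -1.39 ± 0.83, and none passed in any comparison. For both hormones minus placebo 1 of 3 was above 0 (median -0.98), and 2 of 3 without estrogen+progesterone 2 (0.80, where the median of all genes was 0.31).

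The enzymes and adaptors that act after the TYROBP motif showed no shared direction. Of 10 tested, 6 were above 0 for estrogen minus placebo (median 0.13, against 0.28 over 9781 genes), 5 for both hormones minus placebo (0.099, against -0.0996) and 6 for both hormones minus estrogen (0.096, against -0.44), with 0 past the test each time. Of the 10, 5 were above 0 against placebo (median 0.062) and 4 against estrogen (-0.021) without estrogen+progesterone 2. The medians of all genes were then 0.31 and 0.049. PLCG1, a phospholipase, was above the floor on all 6 arrays, with signals of 628 and 602 with both hormones, 491 and 925 with estrogen, and 548 and 449 with placebo. Log2 differences for estrogen minus placebo were -0.12 ± 0.84 for PLCG1 and 0.88 ± 1.38 for the adaptor GRB2. PIK3R1, the regulatory subunit of phosphoinositide 3-kinase, stood at 0.76 ± 1.31. Other tested probe sets of GRB2 differed in sign, at 1.44, 0.51 and -1.54.

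Genes of complement were above 0 for 7 of 10 with estrogen against placebo (median 1.21, against 0.28 over all genes), for 8 of 10 with both hormones against placebo (0.46, against -0.0996) and for 1 of 10 with both hormones against estrogen (-0.63, against -0.44). None passed the test in any of the 3. Without estrogen+progesterone 2 the count was 8 of 10 against placebo (median 0.99) and 3 of 10 against estrogen (-0.11), where the medians of all genes were 0.31 and 0.049. Of 14 with a named probe set, 10 exceeded the floor on every high-signal array and 1 on every low-signal array. The partner chains of C1QA in the C1q protein, C1QB and C1QC, are given because of that partnership, after their values were seen. C1QB had signals of 186 and 43.2 with both hormones, 166 and 260.0 with estrogen, and 33.3 and 164 with placebo, and exceeded the floor on high-signal arrays only. C1QC had 120 and 113 with both hormones, 82.0 and 178 with estrogen, and 375 and 173 with placebo, and did so on these and on placebo 1. All 3 chains, with C1QA as probe set 1, cleared the floor on each of the 3 high-signal arrays. There the deposited signal of each was lowest on estrogen 1 and highest on estrogen 2. C1QA probe set 2, also above the floor there, was instead lowest on estrogen+progesterone 1 (104, against 108 and 125 with estrogen). After normalization C1QA probe set 1 was highest on estrogen+progesterone 1 (8.778, against 8.629 and 8.770 with estrogen). ITGAM, the alpha chain of complement receptor 3 on microglia, stood at 1.38 ± 0.95 for estrogen minus placebo. In that comparison CD55, which protects cells from complement, stood at -0.21 ± 0.94. C1QBP, a mitochondrial protein that binds C1q, stood at -0.029 ± 1.31. Other tested probe sets stood at 1.97 and 0.49 for CD55, and at -0.36 for C1QBP.

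AIF1's paralog AIF1L and 4 other genes of actin remodeling entered the test, and 0 passed. AIF1L had signals of 437 and 212 with both hormones, 444 and 709 with estrogen, and 524 and 264 with placebo, which overlap. For both hormones minus estrogen 4 of the 5 were below 0 (median -0.90, against -0.44 over all genes), among them RAC1, a small GTPase of membrane ruffling, at -0.91 ± 0.80 and the actin bundler PLS3 at -0.83 ± 1.05. Of the 5, 2 were below 0 without estrogen+progesterone 2 (median 0.080, where the median of all genes was 0.049).

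**Figure D4:**
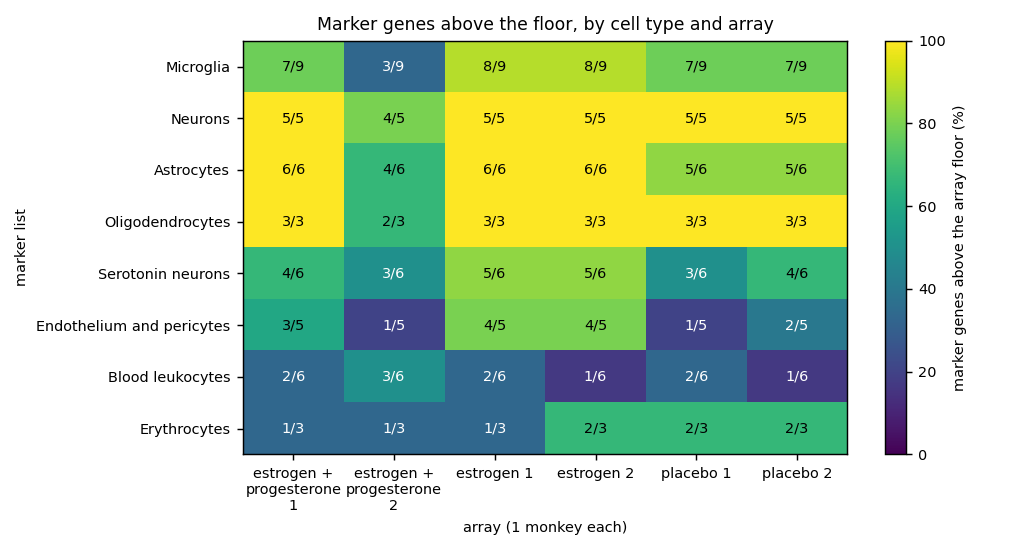
Number of marker genes above the array's floor, of those with a named probe set, for 8 cell types (rows) on the 6 arrays (columns). Shading gives the percentage. Microglial markers number 7 and 3 of 9 with both hormones, 8 and 8 with estrogen, and 7 and 7 with placebo.

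Other genes of microglia and macrophages were numerous above background on the high-signal arrays. Of 24 with a named probe set, 17 were above the floor on all of these and 8 on all low-signal arrays. SPP1, a secreted phosphoprotein, had signals of 11221 and 810.4 with both hormones, 7555 and 6076 with estrogen, and 2281 and 3173 with placebo. GPNMB, a lysosomal membrane glycoprotein, had 4676 and 292 with both hormones, 4302 and 2835 with estrogen, and 468 and 1506 with placebo. CD68, a lysosomal protein of macrophages, had 1792 and 302 with both hormones, 1389 and 1023 with estrogen, and 577 and 1248 with placebo. All 3 were lowest on estrogen+progesterone 2, as TYROBP was, and all 3 are also made by other brain or immune cells. Of the 18 tested, 10 were above 0 for estrogen minus placebo (median 0.25, against 0.28 over all genes), 5 for both hormones minus placebo (-0.56, against -0.0996) and 2 for both hormones minus estrogen (-0.53, against -0.44), with 0 past the test in each. Without estrogen+progesterone 2 the counts were 12 against placebo (median 0.15) and 6 against estrogen (-0.22). The medians of all genes were then 0.31 and 0.049, so all genes moved with that array. In both comparisons the list median was below that of all genes with and without it.

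The markers shared with these lists differed among themselves as the members did. P2RY12, a purine receptor of resting microglia, had signals of 1519 and 171 with both hormones, 621 and 237 with estrogen, and 133 and 252 with placebo. CX3CR1, the fractalkine receptor, had 7.87 and 315 with both hormones, 45.0 and 82.4 with estrogen, and 279 and 328 with placebo. CX3CR1 was thus low on the high-signal arrays, as TMEM119 was with estrogen, but it was below the floor on estrogen+progesterone 1 alone. CSF1R, the receptor microglia need to survive, had 359 and 248 with both hormones, 339 and 513 with estrogen, and 233 and 326 with placebo, and was above the floor on all arrays but estrogen+progesterone 2. These 3 were chosen after their values were seen. The summed signal of the 9 microglial markers was 2002 to 3852 with both hormones, 2509 to 2882 with estrogen and 2658 to 2688 with placebo, sums that include values below the floor.

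Factors that act on microglia were in part above the floor. Of 8 with a named probe set, 5 and 5 were above it with both hormones, 6 and 6 with estrogen, and 3 and 5 with placebo. CSF1 was above it on estrogen+progesterone 2 alone, CX3CL1 on placebo 1 and estrogen 1, and IL34 on the high-signal arrays only. The counts include CD200R1 and SIRPA, receptors of such factors, and CD200R1 stood at -1.29 ± 1.18 for estrogen minus placebo. Of 6 tested, 5 were above 0 for estrogen minus placebo (median 0.61, against 0.28 over all genes), 4 for both hormones minus placebo (0.37, against -0.0996) and 2 for both hormones minus estrogen (-0.65, against -0.44), and 0 passed. Leaving out estrogen+progesterone 2 gave 5 against placebo (median 0.85) and 3 against estrogen (0.14). The medians of all genes were then 0.31 and 0.049. CD200, a neuronal surface protein that restrains microglia, had signals of 2732 and 297 with both hormones, 4005 and 2080 with estrogen, and 453 and 1323 with placebo. CD47, a signal against phagocytosis, stood at 0.39 ± 0.95 for estrogen minus placebo and its receptor SIRPA at 1.10 ± 1.15. Other tested probe sets stood at 0.86, 0.75 and 3.32 for CD47, and at 0.86 and -0.58 for SIRPA. Those of CD200 stood at 3.47 and 0.67, against 0.82 ± 1.09 for the one shown.

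The captured material held RNA of several cell types beside microglia. All 5 neuronal, 6 astrocyte and 3 oligodendrocyte markers with a named probe set exceeded the floor on every high-signal array. Of the 6 serotonin neuron markers 4 were, and TPH2, their tryptophan hydroxylase, was above it on both estrogen arrays alone, at 54.0 and 63.2. The part of unequal capture of these cells in the microglial values was not tested.

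Likeness over the 6 monkeys was measured as the root mean square difference between log2 profiles, each centered on its mean, among 9781 genes. TYROBP was most like ANKLE2 (0.12), POLE2 (0.14) and ERBB3 (0.14), where the median gene lay at 1.13. C1QA probe set 1 was most like PANK1 (0.097), SLC12A9 (0.11) and DUOX1 (0.12), with a median of 0.98. AIF1 probe set 1 was most like NHLH2 (0.21), NPPA (0.26) and PNLDC1 (0.28), with a median of 1.08. TMEM119 had looser neighbors, TEX36 (0.39), GTF3C3 (0.48) and GPS2 (0.49), with a median of 1.85. The members were not each other's nearest profiles, with AIF1 and C1QA taken by probe set 1. From TYROBP, AIF1 lay at 1.05, under the median of 1.13, C1QA at 1.37 and TMEM119 at 2.37. C1QA ranked 1524 from AIF1, and 1633 from TMEM119 at 1.34, both nearer than the median gene. C1QA and AIF1, at 0.74, were the closest pair of the 4.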

How the data were processed

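Biotin-labelled RNA from laser-captured cells was hybridized to 1 array per monkey, per the labels' protocols. Linear intensities were deposited for 52865 probe sets, scaled by the authors to a mean of about 200 per array after 2% was trimmed at each end, as the values show. Scaling of this kind also raises background on arrays with little signal. The summarization software is not given in the sources used here. The number of arrays limits the precision.

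Probe sets were named from the platform annotation, with symbols updated through the RefSeq gene table for 24616 of 24956. Intensities were taken to log2 after adding 16, so differences of low signals are understated, and quantile normalized without the 99 controls. Probe sets whose mean fell below the 50th percentile were dropped, which left 26383, all 6 members included. A mean per group was fitted over 6 arrays with limma 3.58.1 in R 4.3.3 (3 residual degrees of freedom, moderated standard errors, two-sided, Benjamini-Hochberg over all tested, threshold 0.05). The fit was tested on simulated data with less spread than these arrays and none of their differences in signal. That checks the code and not the power of the fit here. For a listed gene with several tested probe sets, that of the highest mean stood for it.

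Members, lists and the floor were chosen with earlier results of these data known. Named genes are the members, the 3 tested genes of each list with the highest mean, the 3 nearest profiles per member, and those said to be chosen later. Alternatives were other offsets, scalings, filters, priors, weights, covariates, groups and left-out arrays. List counts without estrogen+progesterone 2 were added after seeing the data. Replicate numbers did not pair monkeys: deviations from group means correlated between groups at -0.063 to 0.082.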

Additional observations from a re-analysis of the deposited data

How the results depend on the processing

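With 2 monkeys per group, the standard errors of the 6 probe sets were 0.82 to 1.11 log2 units, and 10 of 36 values lay below the floor, where signal over background sets the limit. Of 330 recomputed differences, 300 kept their sign and stayed short of the threshold, 28 changed sign, and 2, named in the text, passed. Of the 18 differences, 8 never changed sign, those of TMEM119 against estrogen and for estrogen minus placebo among them. Many of the 330 could not change sign, so these counts overstate stability. Filters, the trended prior, array weights, the replicate block and fitting 2 groups alone left each estimate as it was. So did leaving out an array outside the comparison. For the combined treatment, the signal class covariate repeated values obtained with an array left out.

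For estrogen minus placebo, C1QA probe set 2 stood at -0.011 without quantile normalization and -0.041 with the signal class, C1QA probe set 1 at 1.02 with median-centring and 2.09 with scaling to the hybridization controls, AIF1 probe set 1 at 0.94 with that control scaling, and TYROBP at -3.03 with the signal class. For both hormones minus placebo, C1QA probe set 2 stood at -0.092 with an offset of 64, -0.018 without quantile normalization and -0.27 with the signal class. TMEM119 stood at -0.14 without quantile normalization, TYROBP at 0.014 with median-centring and 0.34 with control scaling, and C1QA probe set 1 at 0.30, 0.50 and 0.0093 with median-centring, control scaling and the signal class. For both hormones minus estrogen, C1QA probe set 1 stood at -0.71 with median-centring and -1.60 with control scaling, and TYROBP at 0.24 with the signal class. The causes were not tested. These scalings move all genes. The median difference over all tested probe sets was 1.15, 0.28 and -0.78 in the 3 comparisons with median-centring, and 2.19, 0.49 and -1.64 with control scaling, in the order just used.

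With 1 array left out, the ranges that crossed 0 were, for estrogen minus placebo, -0.91 to 2.28 for C1QA probe set 2 (the low end without placebo 2) and -1.32 to 0.011 for AIF1 probe set 1 (the high end without estrogen 2). For both hormones minus placebo they were -0.63 to 0.11 for C1QA probe set 1 (above 0 without placebo 1 or estrogen+progesterone 1), -1.51 to 1.69 for C1QA probe set 2 (below 0 without placebo 2 or estrogen+progesterone 1), -0.30 to 0.94 for TMEM119 and -2.78 to 0.63 for TYROBP, and for both hormones minus estrogen -3.17 to 0.24 for TYROBP.

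The count of probe sets called was 0 in each comparison, while 2065, 870 and 464 had an unadjusted p under 0.05 in limma. It was 434 for estrogen minus placebo with array weights, and 0 to 4200 for both hormones minus estrogen with 1 array left out, 4200 without estrogen+progesterone 1. With the replicate block it was 0 in all 3, with 2072, 808 and 765 at an unadjusted p under 0.05, and this unpaired number changed no call of a member (TMEM119, estrogen minus placebo, adjusted p = 0.612 with the replicate block). At the 75th percentile filter only TYROBP and C1QA probe set 1 were still tested. With the highest control probe set as floor, AIF1 probe set 1 was above it on 2 arrays, not 4.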
